A study of Bos taurus with 22 samples.

Results

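Subcutaneous white fat of late-pregnant heifers is described here from the 11 arrays whose titles name adipose tissue taken 30 days before calving. They are 11 of the 22 arrays of the series, and each carries the number of a different cow. All were Holstein heifers before their first calving, 24 to 28 months old, kept on the same farm. They calved within 60 days of each other and ate freely from a ration of haylage (44%, alfalfa), hay (44%, orchardgrass) and concentrate (12%). The tissue came from a dorsal subcutaneous depot, and the diet was not manipulated. With a single group, the question is what this fat expresses and where the animals differ.

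Fat cells store fatty acids as triglyceride. They take them up from blood lipoproteins with lipoprotein lipase (LPL) or make them from acetate, the main carbon source for fatty acid synthesis in ruminants, through ACSS2, ACACA and FASN. SCD then desaturates them, GPAM and DGAT2 build them into triglyceride, and LIPE and PNPLA2 release them when energy runs short. Around the fat cells lie collagen-making fibroblasts, vessels and macrophages, and a subcutaneous depot lies between skin and muscle.

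Levels are given as log2(signal + 7.83), where signal is the authors' MAS5 value for a probe set and 7.83 keeps dim values from dominating. A difference of 1 is close to a doubling of signal for bright genes and more than a doubling for dim ones. Signal depends on the probes as well as on the transcript, so levels are compared between animals and not between genes. Of 24016 bovine probe sets, 14410 with a mean at or above the 40th percentile were kept, and 6989 named genes were each read from the brightest kept probe set.

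The adipocyte markers were present on every array. All 14 of the 16 listed markers that the array carries passed the filter. ADIPOQ, the gene of the hormone adiponectin, had a lowest level of 10.40, a median of 11.03 and a highest of 11.60. CIDEC, a lipid droplet protein, ranged from 11.31 to 12.10, and LPL from 11.75 to 12.56. The median of the 14 markers deviated from their own medians by at most 0.15 upward, in cow 331, and by -0.44 in cow 387. In bulk tissue, fewer cells of a type and less RNA per cell cannot be told apart.

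Some arrays held transcripts of other tissues. An array was called high in ACTA1, the actin of skeletal muscle, or in KRT10, a keratin of the upper epidermis, when its level stood over 2 log2 units above the median of the 11 arrays. ACTA1 was 12.91 in cow 387 and 11.75 in cow 384, against 4.31 to 6.25 in the other 9 arrays. KRT10 was 12.55 in cow 341, 11.48 in cow 382, 9.35 in cow 330 and 9.34 in cow 331, against 6.09 to 7.11 in the other 7. No array was high in both, and 5 arrays (cows 338, 346, 347, 360 and 386) were high in neither.

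Every title closes with 1 of 2 codes, left unexplained, which put the arrays into set 1 (cows 331, 338, 341, 347 and 360) and set 2 (cows 330, 346, 382, 384, 386 and 387). The log2 ratio of 3 prime to 5 prime GAPDH signal, a sign of RNA quality and labelling, ran from 0.41 to 0.62 in set 1 and from -0.05 to 0.35 in set 2, without overlap (exact two-sided permutation p = 0.00433, adjusted over 5 quality measures 0.0108). The median signal ran from 39.9 to 42.7 in set 1 and from 43.1 to 47.3 in set 2, also without overlap (exact permutation p = 0.00433, adjusted 0.0108). The other 3 measures overlapped: the actin ratio was 1.37 to 3.71 in set 1 and -0.12 to 3.75 in set 2 (exact permutation p = 0.695, adjusted 0.703), and the 20th percentile of signal and the rank correlation with other arrays each gave an adjusted exact p of 0.703. The array of cow 387 had the lowest median rank correlation with the others, 0.933, against a median of 0.950 over the 11 arrays. Its major histocompatibility transcripts, described further on, lay on the other side from those of the second array titled with the same cow number. Whether both arrays come from the same animal was not tested. No test below pairs the arrays of a cow. Second arrays with the same cow number serve only to describe genes with a gap between arrays and the array set difference. The most variable genes and the genes called with FASN are given with and without cow 387. Other results include it unless arrays without it are named.

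The 20 brightest genes were mostly those of connective tissue, fat and the translation machinery. Matrix genes among them were the collagens COL3A1 (mean level 13.24 ± 0.20, SD, n = 11) and COL1A2 (12.80 ± 0.20), the collagen-binding proteoglycan DCN (12.74 ± 0.16) and SPARC (12.60 ± 0.18). FABP4, the fatty acid carrier of adipocytes, stood at 12.95 ± 0.23. Also in this group were 5 ribosomal protein genes, among them RPS3A, RPL13A and RPS24, the elongation factor EEF1A1, and the cytoskeletal genes TMSB10 and VIM. One probe set was annotated as CDK5R1, a gene best known from neurons, at 12.86 ± 0.15. Of these 20 genes, 19 had an SD of 0.14 to 0.25, below the median SD of 0.255 over all 6989 genes. The exception was SCD, with a lowest level of 11.80 in cow 387, a median of 12.74 and a highest of 13.15 in cow 346 (SD 0.45).

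Most genes differed little between animals, and the few that differed a lot were led by muscle, epidermal and histocompatibility transcripts. An SD over 1 was reached by 72 of 6989 genes (1.03%), and an SD over 2 by 24. Of the 72 genes, 32 were highest in cow 387 and 12 in cow 341. Without the 2 arrays high in ACTA1, 51 genes had an SD over 1 and 9 an SD over 2. Without the 4 arrays high in KRT10 the numbers were 76 and 20, and without all 6 of those arrays 42 and 5. In the order of SD over all 11 arrays, the first 20 genes were 13 of muscle (MYL1, TNNC2, ACTA1, NEB, SLN, MYBPC1, TNNC1, MYH1, ATP2A1, TNNT3, MYOZ1, ACTN3 and PYGM), 4 of skin and hair (S100A7, KRT14, KRT25 and KRT10), 2 of the histocompatibility complex (BOLA and BOLA-DQA5) and PRSS2. Of these 20, 7 stayed among the first 20 without the arrays high in ACTA1, 17 without those high in KRT10, 12 without cow 387 alone, and 3 without the arrays high in either gene.

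**Figure D1:**
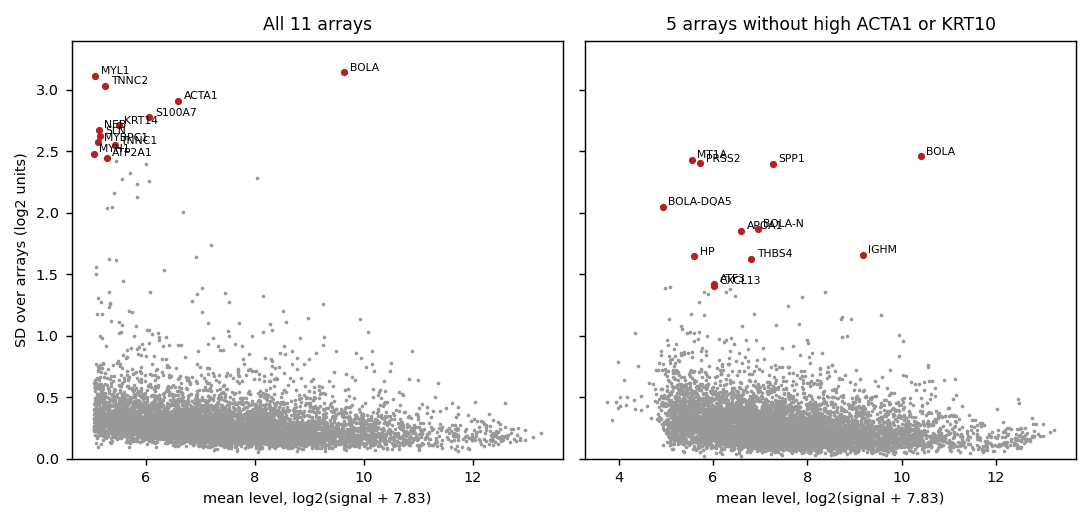
Standard deviation of each of 6989 genes over arrays (vertical, log2 units) against its mean level (horizontal, log2(signal + 7.83)), for all 11 arrays on the left and for the 5 arrays high in neither ACTA1 nor KRT10 on the right; grey points are genes and red points the 12 with the highest SD. Muscle and epidermal genes stand out on the left and are not labelled on the right, where BOLA, MT1A, PRSS2 and SPP1 lead.

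The muscle transcripts came from 2 arrays. Apart from ACTA1, by which the arrays were chosen, 16 of 19 kept genes of a skeletal muscle list stood over 2 log2 units above their median in cow 387, 10 in cow 384 and none in the other 9 arrays. The summed signal of the list had a median of 4409 over the 11 arrays and reached 76666 in cow 387. MYL1, a fast-fibre myosin light chain, was 12.84 in cow 387 and 9.41 in cow 384, against at most 4.15 elsewhere. The slow-fibre and cardiac troponin TNNC1 was 11.91 and 8.51 in the same arrays, against at most 5.35. The fast myosin heavy chain MYH1 differed between them: it was 12.40 in cow 387 and 5.19 in cow 384, where the other 9 arrays ran from 3.57 to 4.78. Not all listed genes followed. The probe sets annotated MYH7 (9.19 to 10.25), CKM (8.83 to 10.06) and TPM3 (10.28 to 10.51) were bright on all arrays and not raised in these 2. Across the 9 other arrays the list's median SD was 0.40 and its median pairwise correlation 0.05, against 0.0066 over all gene pairs.

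The epidermal transcripts came mainly from cows 341 and 382. KRT14, the keratin of the basal epidermal layer, was 11.33 in cow 341 and 9.68 in cow 382, then 6.12 in cow 330 and 5.92 in cow 331, and 3.16 to 5.48 in the other 7. DSG1, a desmosomal cadherin, was 10.04 and 8.26 in cows 341 and 382, and PERP, another desmosome gene, 9.99 and 8.49. S100A7 (psoriasin), a calcium-binding protein of keratinocytes, was 11.59 and 10.13 in these arrays, 7.79 in cow 330 and 7.17 in cow 331. The same 4 arrays thus held the highest KRT14, DSG1 and S100A7 levels. Apart from KRT10, by which the arrays were chosen, 4 of 8 kept genes of the keratinocyte list (KRT14, KRT25, DSG1 and PERP) stood over 2 log2 units above their median in cows 341 and 382, 1 (KRT25) in cows 384 and 387, and none in cows 331 and 330. The epithelial genes EPCAM (5.73 to 7.61) and CDH1 (4.82 to 6.43) showed no such split. For KRT5, the partner keratin of KRT14, the brighter of 2 kept probe sets did not show it either (6.86 to 7.92), but the other did, at 10.94 in cow 341, 9.78 in cow 382, 6.10 in cow 331, 5.78 in cow 330 and 4.24 to 5.75 elsewhere. KRT25, a keratin of the hair follicle's inner root sheath, followed another pattern: it was 9.27 in cow 382 and 8.16 in cow 341, but also 8.45 in cow 387 and 7.63 in cow 384, the 2 arrays high in muscle genes, and at most 4.79 elsewhere. Few markers of pigment cells and glands were kept: MITF (6.30 to 7.25) and KIT (7.98 to 9.16) of 8 listed melanocyte genes, and SOAT1 (6.56 to 7.38) of 15 listed gland genes. MITF and SOAT1 were not highest in any of the 4 arrays high in KRT10, and KIT was highest in cow 331.

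**Figure D2:**
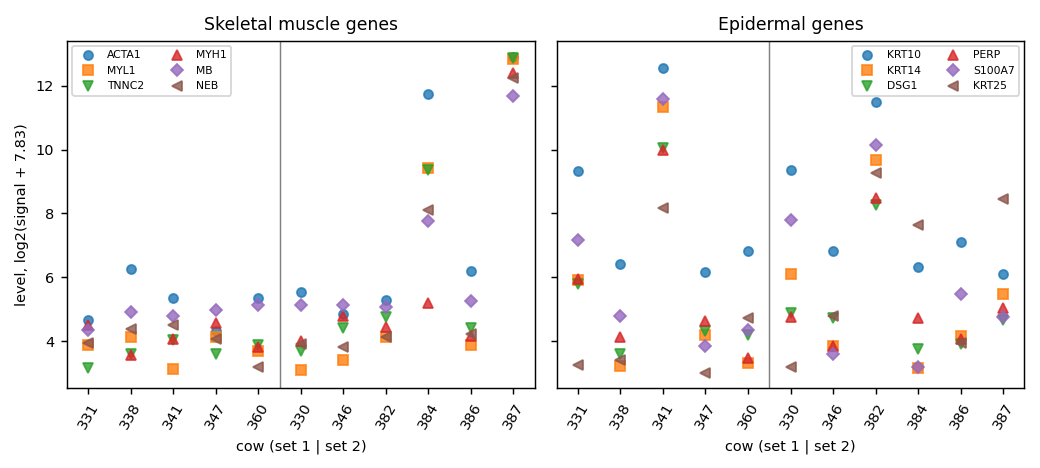
Levels (vertical, log2(signal + 7.83)) of 6 skeletal muscle genes on the left and 6 epidermal genes on the right in each of the 11 prepartum arrays (horizontal, by cow, set 1 left of the grey line and set 2 right of it); each symbol is 1 gene. Muscle genes are high in cows 384 and 387, with MYH1 at 5.19 in cow 384. Epidermal genes are high in cows 341 and 382, with KRT10 and S100A7 also raised in cows 331 and 330 and KRT25 also high in cows 384 and 387.

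Genes of the histocompatibility complex and PRSS2 took on-or-off levels that did not follow those tissues. The complex encodes the molecules that present antigen to T cells and is among the most polymorphic parts of the genome. The probe set annotated BOLA was 3.56, 5.01 and 6.03 in cows 387, 382 and 386 and 10.41 to 12.07 in the other 8, a gap of 4.38 log2 units. BOLA-N, likewise of class I, was low in the same 3 arrays (3.21 to 4.19) and 6.61 to 8.72 in the others. BOLA-DQA5, a class II gene, ran the other way, at 8.51 to 9.01 in those 3 cows and 3.30 to 4.53 in the rest. BOLA-DQB followed it, at 6.68 to 7.56 against 4.27 to 5.35, while the class II gene BOLA-DRA ranged only from 9.78 to 10.75. The 3 cows belong to array set 2, whose other 3 cows had the opposite levels. In the second array titled with the same cow number, BOLA, BOLA-DQA5 and BOLA-N each lay on the same side of the gap for 10 of 11 cows, and cow 387 was the exception for all 3. PRSS2, annotated as a trypsinogen, was 8.30 to 8.71 in cows 331, 338, 330, 346 and 384 and 3.91 to 4.41 in the other 6, and the second array lay on the same side for 11 of 11 cows. KRT10 and KRT25 split the arrays by gaps of 2.23 and 2.83 log2 units, and the second array lay on the same side for 7 of 11 cows. Those 7 were the cows on the low side. For both genes, the second array of each of the 4 cows on the high side lay on the low side. Each of these genes was read from 1 kept probe set.

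**Figure D3:**
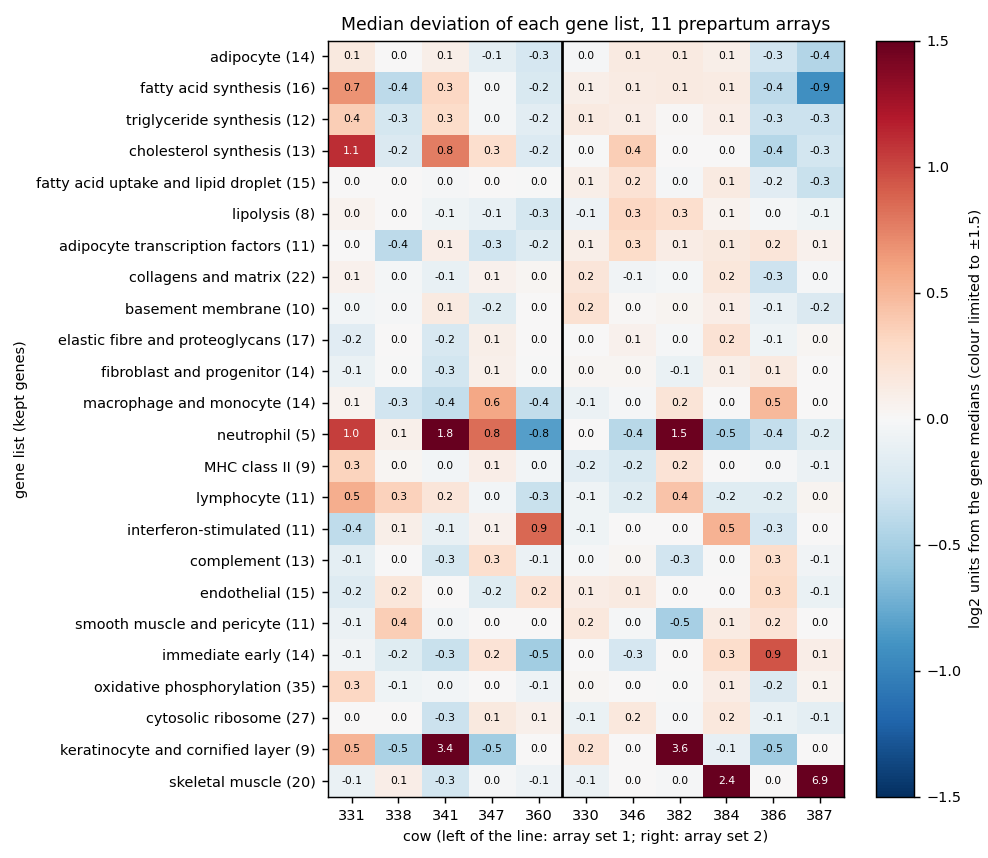
Median deviation of the kept genes of each list from their own medians over the 11 prepartum arrays (log2 units, printed in each cell; red above, blue below, colour limited to 1.5 either way), by list (vertical, number of kept genes in brackets) and cow (horizontal, set 1 left of the line). Skeletal muscle reaches 6.89 in cow 387 and keratinocyte genes 3.59 in cow 382, while fatty acid synthesis runs from 0.67 in cow 331 to -0.92 in cow 387 and collagens stay within 0.31.

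Genes that make fatty acids varied together. FASN, the fatty acid synthase, had a lowest level of 9.75 in cow 338, a median of 10.82 and a highest of 11.61 in cow 331. The values were spread along this range, with cows 338, 387 and 386 low and cows 331, 341 and 346 high. ACSS2, which activates acetate, ran from 9.06 to 11.43, ACACA, the first committed step, from 6.47 to 9.02, and ELOVL6, an elongase, from 7.02 to 9.48. Each of the 3 was lowest in cow 387, as were all other genes of the fatty acid synthesis list except FASN, ELOVL1 and ME1. Over the fatty acid synthesis list (16 kept genes) the median correlation between pairs was 0.72 over 11 arrays, and 117 of 120 pairs were positive. Over all gene pairs the median was 0.008, with 50.8% positive. The list's median correlation was 0.62 without the arrays high in ACTA1, 0.70 without those high in KRT10, and 0.77 after the mean of each array set was removed. It was not computed without cow 387 alone, which is among the arrays high in ACTA1. These correlations are across animals on shared arrays and describe the group, with no test of the list.

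The slope of every gene on FASN was then tested with limma over 14409 probe sets. Of 6988 genes, 6 passed an adjusted p of 0.05 (0.0859%, or 0.0625% of probe sets), all with positive slopes, and 764 probe sets had an unadjusted p under 0.05. ACSS2 rose by 1.11 ± 0.14 log2 units (SE) per unit of FASN (Pearson r = 0.92, Spearman rho = 0.94, n = 11, limma adjusted p = 0.0141). TKT, a transketolase of the pentose phosphate pathway, had a slope of 0.62 ± 0.09 (r = 0.93, rho = 0.98, limma adjusted p = 0.0239), and GPAM, the first acyltransferase of triglyceride synthesis, one of 0.99 ± 0.14 (r = 0.90, rho = 0.87, limma adjusted p = 0.0239). SLC25A1, which exports citrate from mitochondria, had a slope of 0.81 ± 0.13 (r = 0.88, rho = 0.93, limma adjusted p = 0.0475). The other genes were MGST1, a microsomal glutathione transferase (r = 0.90, rho = 0.85, limma adjusted p = 0.0239), and TECTB, best known from the inner ear (r = 0.90, rho = 0.86, limma adjusted p = 0.0239). The permutation p of r, from 100000 resamples and not adjusted for the choice of genes, was at most 0.00038 for these 6, and that of rho at most 0.00148. Without the 2 arrays farthest from the FASN median (cows 338 and 387), r was 0.81 to 0.91. It was 0.80 to 0.98 within set 1 and 0.91 to 0.99 within set 2.

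These correlations held their size in smaller sets of arrays while the adjusted p did not. Without the arrays high in ACTA1, r of the 6 genes lay between 0.85 and 0.94, and only 1 probe set passed; the adjusted p was 0.052 for GPAM, 0.116 for ACSS2 and 0.211 for the other 4. Without the arrays high in KRT10, r was 0.85 to 0.93 and none passed, over 7 arrays. When each array was left out in turn, ACSS2 passed in 9 of 11 fits, GPAM, MGST1 and TKT in 6, TECTB in 5 and SLC25A1 in none. None of the 6 passed without cow 331 or without cow 387, where the adjusted p of ACSS2 was 0.072 and 0.063. Without cow 387, r of the 6 was 0.84 to 0.93.

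**Figure D4:**
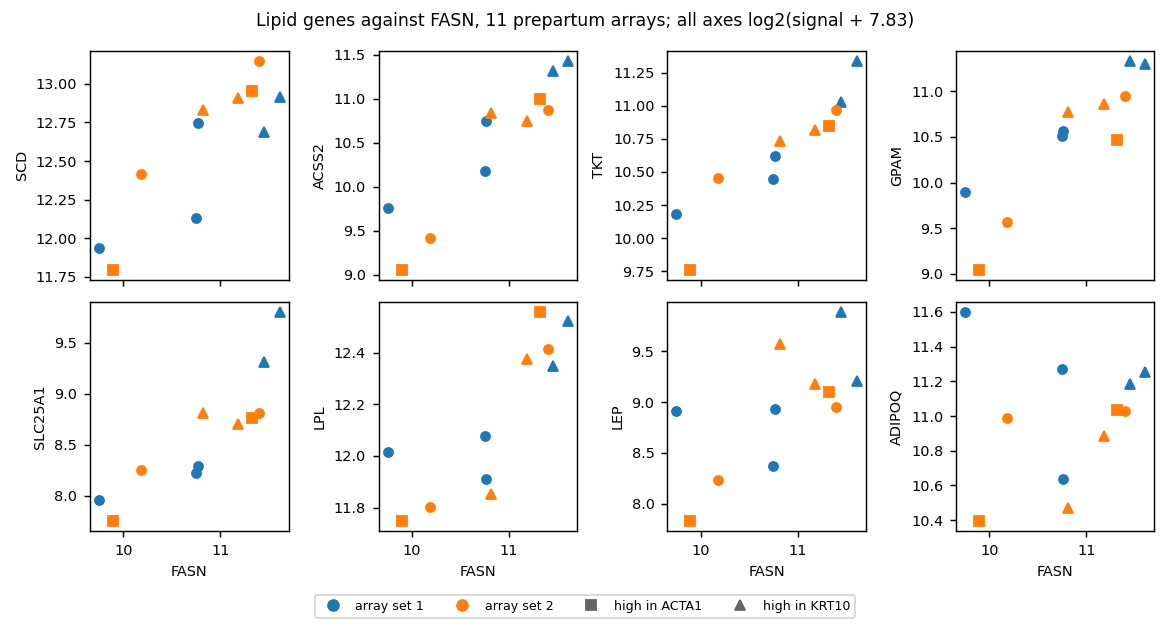
Levels of 8 lipid genes (vertical) against FASN (horizontal) in the 11 prepartum arrays, all in log2(signal + 7.83); blue is array set 1, orange set 2, squares are arrays high in ACTA1 and triangles those high in KRT10. ACSS2, TKT, GPAM and SLC25A1 rise with FASN (r = 0.88 to 0.93) in both sets, while ADIPOQ, whose highest level of 11.60 lies at the lowest FASN level of 9.75, shows no such order.

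Lists for triglyceride synthesis, fat uptake and lipolysis had lower pairwise correlations than fatty acid synthesis. On the FASN slope, all 15 other fatty acid synthesis genes were above 0, with a median r of 0.80 and 3 called, 11 of 12 triglyceride synthesis genes (median r 0.63, 1 called), and 12 of 13 cholesterol synthesis genes (median r 0.67, none called); over all genes the median r was 0.04. DGAT2, which completes triglyceride, ranged from 8.87 in cow 387 to 12.12 in cow 331. AGPAT2, the next acyltransferase after GPAM, ranged from 8.04 to 10.30 in the same 2 arrays. Within the triglyceride list the median pairwise correlation was 0.31. The list for uptake and droplets, with LPL, CD36 and FABP4, reached 0.27, and lipolysis 0.20. Without the arrays high in ACTA1 the triglyceride, uptake and lipolysis lists gave 0.41, 0.11 and 0.29. Without those high in KRT10 they gave 0.27, 0.39 and 0.22. LIPE (10.13 to 11.07) and PNPLA2 (9.05 to 10.21), the lipases, were both highest in cow 386 and lowest in cow 347, where FASN was 10.18 and 10.77. On the dimmer kept LIPE probe sets cow 386 was also highest (9.36 and 8.90), but cow 341 was lowest (6.40 and 6.02). SREBF1, a transcription factor of lipid synthesis, ranged from 8.76 to 10.04.

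Cholesterol synthesis genes were high in cows 331 and 341. The list of 13 deviated by 1.11 and 0.76 log2 units in these arrays and by -0.43 in cow 386. HMGCS1, an early enzyme of the pathway, was 11.15 and 10.57 in the 2 arrays and 8.69 to 9.97 in the others. SQLE, the squalene epoxidase, was 8.34 and 7.89, against 5.76 to 7.53. INSIG1, a sterol sensor, was 9.83 and 9.56, against 6.59 to 8.36. The 2 arrays are also high in KRT10 (9.34 and 12.55), but cow 382, with KRT10 at 11.48, had a list deviation near 0. Within the list the median pairwise correlation was 0.74 over 11 arrays, 0.76 without the arrays high in ACTA1 and 0.49 without those high in KRT10. Between cholesterol and fatty acid synthesis genes it was 0.60, 0.68 and 0.38. The part of the epidermal transcripts in these values was not tested beyond leaving those arrays out.

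Leptin (LEP), which adipocytes secrete with growing fat stores, had a lowest level of 7.83 in cow 387, a median of 8.95 and a highest of 9.89 in cow 341. A dimmer kept probe set gave another order, from 4.93 in cow 360 to 6.99 in cow 382, with cow 387 at 6.15. All LEP slopes and correlations use the brighter probe set. No gene's slope on LEP passed with limma (0%; smallest adjusted p = 0.0627), while 1066 probe sets had an unadjusted p under 0.05. Over all 11 arrays, all 16 fatty acid synthesis genes had slopes above 0 (median r 0.73, against 0.03 over all genes). These arrays include cow 387, in which LEP and most of these genes were lowest. LEP with FASN gave r = 0.66 (permutation p = 0.0256, adjusted over 78 pairs 0.296) and rho = 0.80 (permutation p = 0.00476, adjusted 0.173). Without the 2 arrays farthest from the FASN median, r was 0.65. It was 0.54 without the arrays high in ACTA1 and 0.58 without those high in KRT10. With array set added to the fit, 12 probe sets passed.

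Collagen and matrix genes varied somewhat more than the typical gene but were only weakly correlated with each other. The 22 collagen and matrix genes had a median SD of 0.34, against 0.255 over all 6989 genes. Their median pairwise correlation was 0.21, against 0.008 over all gene pairs, and the largest list deviation was -0.31, in cow 386. COL1A1, the main chain of type I collagen, was 11.68 in cow 386 and 12.28 to 12.70 in the other 10. A dimmer kept COL1A1 probe set did not set cow 386 apart, at 5.90 there and 5.86 in cow 360. The COL1A1 slopes and correlations use the brighter one. COL1A2 was also lowest in cow 386, at 12.48, as was SPARC at 12.23. ELN, the elastin gene, varied more, from 8.54 in cow 386 to 10.21 in cow 384. Its dimmer kept probe set was also highest in cow 384, at 6.73, but lowest in cow 331, at 3.79, with cow 386 at 4.81. The elastic fibre and proteoglycan list had a median pairwise correlation of 0.29. A pair of matrix genes known from tendon and cartilage was low in cow 386: THBS4 was 4.05 against 6.93 to 8.77, and COL11A1 3.97 against 5.07 to 7.15. One gene of 6988 passed on the COL1A1 slope (0.0143%, or 0.00694% of probe sets; 1149 probe sets at an unadjusted p under 0.05): TREX1, a DNA exonuclease, with a slope of 2.00 ± 0.27 (r = 0.94, permutation p = 0.00103, rho = 0.77, permutation p = 0.00776, limma adjusted p = 0.0451). This rests on cow 386, in which TREX1 was 4.19 against 5.48 to 6.42, and the adjusted p without that cow was 0.576. The call held in 4 of 11 fits that left out 1 array, and was lost without any of cows 330, 331, 338, 360, 382, 386 and 387. Within set 1, which lacks that cow, r was -0.04, and without the 2 farthest arrays 0.64.

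Macrophage genes varied together, with cow 347 highest. CD68, a lysosomal protein of macrophages, was 9.70 in cow 347 and 7.31 to 8.09 in the other 10. CD14, a receptor for bacterial lipopolysaccharide, was 9.69 in that array and 7.38 to 8.88 elsewhere. The list of 14 deviated by 0.59 log2 units in cow 347 and by 0.49 in cow 386. Its median pairwise correlation was 0.51 over 11 arrays, 0.55 without the arrays high in ACTA1 and 0.62 without those high in KRT10. Over 11 arrays, 86 of 91 pairs were positive. Each of these sets of arrays includes cow 347, and no median without that cow is given here. On the CD68 slope all 13 other macrophage genes were above 0 (median r 0.63, against 0.03 over all genes), but 1 gene of 6988 passed (0.0143%, or 0.00694% of probe sets; 670 probe sets at an unadjusted p under 0.05). It was SLAMF7, a receptor of natural killer, plasma and myeloid cells, with a slope of 0.82 ± 0.10 (r = 0.95, permutation p = 0.00014, rho = 0.89, permutation p = 0.00056, limma adjusted p = 0.0274). SLAMF7 was 7.67 in cow 347 and at most 6.62 elsewhere, and r was 0.80 without the 2 farthest arrays. The adjusted p was 0.756 without cow 347, and the call held only without cow 330, 346 or 384.

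Calgranulins and interferon-stimulated genes were highest in other animals. The calgranulins S100A8, S100A9 and S100A12, abundant in neutrophils and also made by keratinocytes, were highest in cows 341 and 382, which are high in KRT10: S100A8 was 10.17 and 9.68 there, 9.36 in cow 331, 8.86 in cow 347 and 7.11 to 8.34 in the rest. The neutrophil list of 5 kept genes, 3 of them calgranulins, deviated by 1.77, 1.47, 1.03 and 0.84 in these cows and by -0.83 in cow 360. Its median correlation with cholesterol synthesis genes was 0.42 over 11 arrays and -0.03 without the arrays high in KRT10. The interferon-stimulated genes were highest in cow 360. There ISG15 was 8.52, MX1 9.85 and RSAD2 9.72, against at most 7.62, 8.78 and 8.63 elsewhere. Cow 384 came next on the list, with deviations of 0.86 in cow 360 and 0.52 in cow 384, and the list's median pairwise correlation was 0.50 (51 of 55 pairs positive). Lymphocyte genes gave 0.33 and class II genes 0.18. These were 0.37 and 0.16 without the arrays high in ACTA1, and 0.15 and -0.0004 without those high in KRT10.

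**Figure D5:**
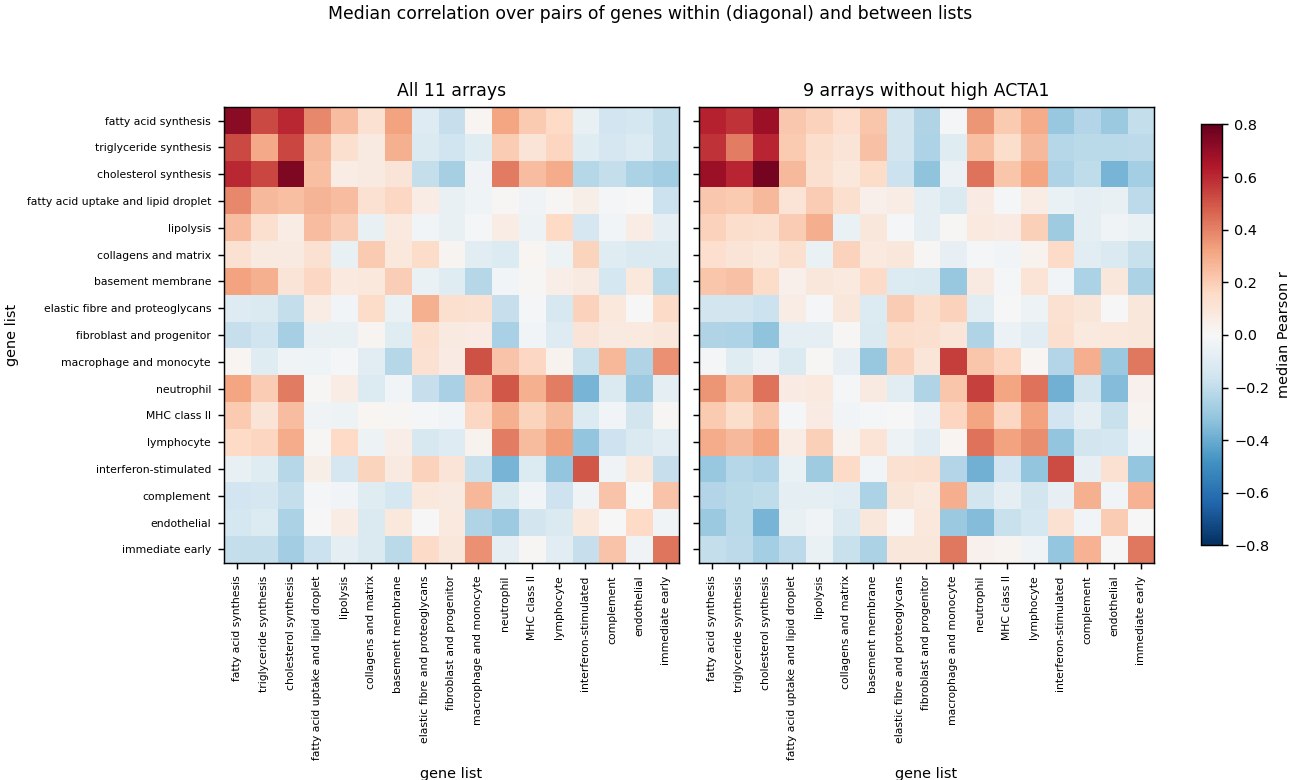
Median Pearson correlation over pairs of genes within a list (diagonal) and between lists (off the diagonal), for all 11 arrays on the left and the 9 arrays not high in ACTA1 on the right; red is positive and blue negative. Fatty acid, triglyceride and cholesterol synthesis correlate between lists (0.53 to 0.60 over 11 arrays), though the triglyceride list reaches only 0.31 within itself. Macrophage and immediate early genes correlate less (0.37), and the neutrophil and interferon-stimulated lists run against each other (-0.37).

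A panel of 13 lipid, matrix, immune and endothelial genes gave 78 pairs, none of which passed an adjusted permutation p of 0.05 by Pearson or by Spearman correlation, and 10 had an unadjusted p of r under 0.05. The closest pair was FASN with SCD, with r = 0.86 (permutation p = 0.00136, adjusted 0.087) and rho = 0.80 (permutation p = 0.00477, adjusted 0.173), and r = 0.66 without the 2 farthest arrays. FASN with LPL gave r = 0.83 (permutation p = 0.00223, adjusted 0.087) and rho = 0.76 (permutation p = 0.00886, adjusted 0.173), and r = 0.90 without those arrays. Both held within array set 2 (r = 0.95 and 0.91). Among pairs of a lipid gene with a matrix gene, LIPE with COL1A1 had the smallest p, with r = -0.65 (permutation p = 0.0342, adjusted 0.296), rho = -0.52 (permutation p = 0.108, adjusted 0.588) and r = -0.28 without cows 347 and 386.

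The 2 array sets differed at many genes. Of 6989 genes, 645 (9.23%) passed in limma's test, 404 higher in set 2 (5.78%) and 241 higher in set 1 (3.45%), and 534 had no overlap between the sets. In probe sets the count was 1346 over all 11 arrays (9.34%; 5.93% higher in set 2 and 3.41% higher in set 1), 641 without those high in ACTA1 and 178 without those high in KRT10. The largest difference was in CYBA, a subunit of the phagocyte NADPH oxidase, at 5.13 to 5.93 in set 1 and 7.46 to 8.28 in set 2 (difference 2.39 ± 0.17, SE, limma adjusted p = 1.55e-05). PIP5K1A, a lipid kinase, differed by 1.90 ± 0.15 (limma adjusted p = 1.78e-05) and TAGLN2, an actin-binding protein, by 1.82 ± 0.22 (limma adjusted p = 0.000473), both without overlap. On the other side PRRC2C, an RNA-binding protein, differed by -1.04 ± 0.18 (limma adjusted p = 0.00438) and A2M, the protease inhibitor alpha-macroglobulin, by -0.97 ± 0.21 (limma adjusted p = 0.0132). The values of A2M overlapped between the sets, and its adjusted p was 0.0527 without the arrays high in ACTA1 and 0.0637 without those high in KRT10, while the other 4 kept their calls in both. In the second arrays titled with the same cow numbers, 628 of the 645 genes (97.4%) differed between the sets with the same sign. The share with the same sign over all 6989 genes was not computed, so this share has no background to be set against. What the sets stand for, and the part of the GAPDH ratio and median signal, which differ in the same way, cannot be told apart from differences between the animals.

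Among list members, 4 of 80 genes of the lipid lists (5.0%) differed between the array sets (CEBPA, MVK, PRKACA and RBP4), against 9.23% of all genes. Of the matrix lists 8 of 72 did (11.1%: COL6A2, HSPG2, LUM, MFAP4, MMP2, NID2, PCOLCE and PDGFRB), and of the immune lists 4 of 78 (5.1%: C1QA, CTSS, FCER1G and IFIT5). None of the 16 fatty acid synthesis genes or 12 triglyceride synthesis genes passed, and 3 of 14 macrophage genes did. These lists are small, and no difference from the share over all genes was tested. Probe sets of a gene did not always agree: of 167 called genes with at least 2 kept probe sets, 103 had all others on the same side, 37 had another call in the same direction and 3 in the opposite one. For LIPE, the brightest of 3 kept probe sets differed between sets by 0.30 (limma adjusted p = 0.140), while the others differed by 2.20 and 1.84 (limma adjusted p = 1.55e-05 and 0.00133), each without overlap.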

How the data were processed

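Biopsies of 11 heifers were hybridised to Affymetrix bovine arrays. The deposited values are linear signal intensities that the authors made with MAS5 according to the submitters' processing notes, whose version is not given in the sources used. Each array had the same trimmed mean of 125 (2% trimmed per end). There is no read depth for arrays; precision is limited by how many there are.

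Of 24128 probe sets, 112 controls were left out. Through GEO's platform annotation and a RefSeq gene table (ARS-UCD2.0, names only), 13292 probe sets had 1 symbol, 86 several and 10638 none; those without 1 symbol were tested but not named. The pseudocount of 7.83 was the median of the arrays' 20th percentiles of signal. All fits used limma 3.58.1 (R 4.3.3) on the 11 arrays, with an intensity trend and Benjamini-Hochberg adjustment over kept probe sets at 0.05: array set 2 minus set 1, and slopes on FASN, LEP, COL1A1 and CD68. The fits were tested on simulated data with independent noise for each probe set, which cannot show their error rate when genes vary together. Pairs of 13 panel genes were correlated with two-sided permutation tests (100000 resamples). Gene lists are described by counts and medians. Named genes were the 20 brightest, the 20 most variable (15 in each smaller set of arrays), called genes, bright list members, panel genes and genes with a gap of at least 2 between 2 clusters; others, such as BOLA-DQB, CDH1, COL11A1 and the genes of cows 347 and 386, were chosen after their values were seen. The members, lists and tests were chosen with earlier results of these data known. Alternatives varied the arrays, normalization, pseudocount, filter, array set and left-out arrays. Python 3.11.15 and matplotlib 3.10.9 were used.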

Additional observations from a re-analysis of the deposited data

How the results depend on the processing

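The fitted slopes and array set differences of named genes kept their sign under every alternative run. Weak correlations did not: without the arrays high in KRT10 the median within the fibroblast list went from 0.07 to -0.08 and within the adipokine list from -0.02 to 0.12, and the panel pairs of FASN with S100A8 and with BOLA-DRA turned negative. Without those arrays the median within the class II list went from 0.18 to -0.0004. The 1346 probe sets that differed between array sets became 641 without the arrays high in ACTA1, 178 without those high in KRT10 and 747 to 1111 with 1 array left out (747 without cow 338, 875 without cow 347, 895 without cow 341), and 1027 to 1341 under other normalizations, pseudocounts and filters. The count of 9 probe sets called with FASN became 1 without the arrays high in ACTA1, which was not among the 9. It became 0 without those high in KRT10, 4 with a pseudocount of 32, 5 with no filter and 19 with array set added. Within array set 2 (added after seeing the data) it was 1, and with 1 array left out 0 to 11. The count of 0 with LEP became 7 with quantile normalization, 5 with the 60th percentile filter, 12 with array set added and 0 to 4 with 1 array left out. The count of 1 with COL1A1 became 6 with quantile normalization or a pseudocount of 32, and 4 with the 60th percentile filter. The probe set called in the main fit was not among those with quantile normalization or the 60th percentile filter. Without the arrays high in ACTA1 the count stayed at 1, but this was another probe set, with a negative slope. The count was 0 without the arrays high in KRT10, with no filter, with array set added or within array set 2. It was 0 to 12 with 1 array left out. The 1 with CD68 became 3 with a pseudocount of 32, 4 with no filter, 2 with array set added, 0 without the arrays high in ACTA1, without those high in KRT10, with the 60th percentile filter or within array set 2, and 0 to 2 with 1 array left out. Of the 20 most variable genes, 7 remained without the arrays high in ACTA1, 3 without those high in either gene, 3 by median absolute deviation, 3 with the 60th percentile filter and 12 to 20 with 1 array left out (12 without cow 387). Panel calls stayed at 0, or 1 without cow 338. Subsets have fewer arrays; the cause of the other moves was not tested. No paired analysis was possible because all tests lie within the prepartum group, where each cow has 1 array.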

Other observations

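A pair of animals high in neither ACTA1 nor KRT10 each held a set of raised transcripts outside the groups above. In cow 347, the animal with the highest CD68, the secreted phosphoprotein SPP1 (osteopontin) was 11.28, against 5.24 to 8.55 in the other 10 arrays. The metallothionein MT1A was 9.24 there, against at most 6.08, and the acute phase protein HP (haptoglobin) 8.29, against at most 6.26. The antibody genes IGHM and JCHAIN were 11.47 and 10.47, against at most 10.18 and 9.08, and the monocyte chemokine CCL2 was 10.05, against at most 8.38. Cow 386 had the lowest COL1A1 on the brighter probe set. Its immediate early genes, which respond within minutes to stress or growth factors, deviated by 0.94 log2 units as a list of 14, the highest of the 11 arrays. NR4A1 was 8.42 there, against at most 7.10, JUNB 9.24 against at most 8.72, and the transcription factor SNAI1 8.71 against at most 6.71. FOS was not highest in that cow, at 9.59, against 10.11 in cow 384 and 9.93 in cow 347. Each of these is 1 animal, so no test was made.

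Housekeeping groups moved together with small amplitude. The 27 cytosolic ribosome genes had a median SD of 0.18 and a median pairwise correlation of 0.72, which was 0.19 after quantile normalization. The 35 oxidative phosphorylation genes had a median SD of 0.20 and a median pairwise correlation of 0.43.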
